A study of Rattus norvegicus with 12 samples.

Results

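The WNT pathway genes Wnt4, Wnt5a, Fzd1, Fzd4, Sfrp4 and Ctnnb1 were followed in the corpus luteum (CL) of pregnant rats in which estradiol (E2) synthesis was blocked and E2 was given back. The 6 genes were taken by gene symbol from the platform's annotation, and all 6 were measured, out of 14506 genes with a symbol. CL were collected from Wistar rats, 3 rats per group and 1 rat per array. The AI+E2 group received anastrozole, an inhibitor of the aromatase that makes E2 (AI), by mouth at 1 mg/kg per day together with E2 at 10 µg per day under the skin. The AI group received anastrozole at the same dose without E2, and the VEH group received vehicle. These 3 groups were treated for 4 days from day 12 of pregnancy and sampled on day 16. The D12 group was untreated and sampled on day 12, so the day of pregnancy and the vehicle treatment cannot be told apart in VEH against D12. The study asked which genes of the CL respond to E2.

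WNT proteins are secreted, lipid-modified ligands that bind Frizzled receptors. In the canonical branch this stabilises β-catenin, which enters the nucleus and activates genes with TCF/LEF factors, and in the other branches it acts on cell polarity, movement and calcium. Secreted Frizzled-related proteins bind WNT ligands outside the cell. In the ovary, Wnt4 is required for female development and follicle growth, and Fzd4 is known from mice to be needed for normal CL formation and fertility.

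The arrays held log2 values after RMA, the normalization that corrects background, makes the distributions of the arrays equal and gives 1 value per probe set. Medians of the 12 arrays lay between 6.51 and 6.56, and arrays of the same group correlated at 0.992 to 0.997. Of 9 luteal cell markers, the mean level lay between 10.50 and 11.22 on every array, and Cyp19a1, the aromatase gene, was matched to no probe set in the annotation used and was not analysed here. Differences between groups are log2 fold changes from limma, fitted over all 12 arrays, with their standard error (SE), and p values were adjusted by Benjamini-Hochberg over all 14506 genes. A gene is said to have risen or fallen where its adjusted p was under 0.05. With 3 arrays against 3, the number of arrays limits the precision. Levels of different genes come from different probes and are not set against each other.

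Wnt5a and Sfrp4 were higher and Fzd4 was lower in AI than in VEH, so 3 of the 6 genes passed the test where 16.9% of all genes did. Adding E2 to AI changed 2 of 6, Wnt5a and Wnt4, both lower, beside 12.8% of all genes. AI+E2 differed from VEH in 2 genes, a lower Wnt4 and a higher Sfrp4, beside 13% of all genes. In VEH against D12 the only call was a lower Sfrp4, beside 10.1% of all genes, and in AI against D12 it was a higher Wnt5a, beside 7.57%. AI+E2 against D12 gave 3 calls, a higher Sfrp4 and lower Wnt4 and Wnt5a, beside 12.1%. The comparisons share arrays with each other, so their calls are not independent. Wnt4 and Wnt5a are also among the E2 responsive genes that the study ranked by their change on these arrays, so their calls are no independent evidence that they respond.

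**Figure D1:**
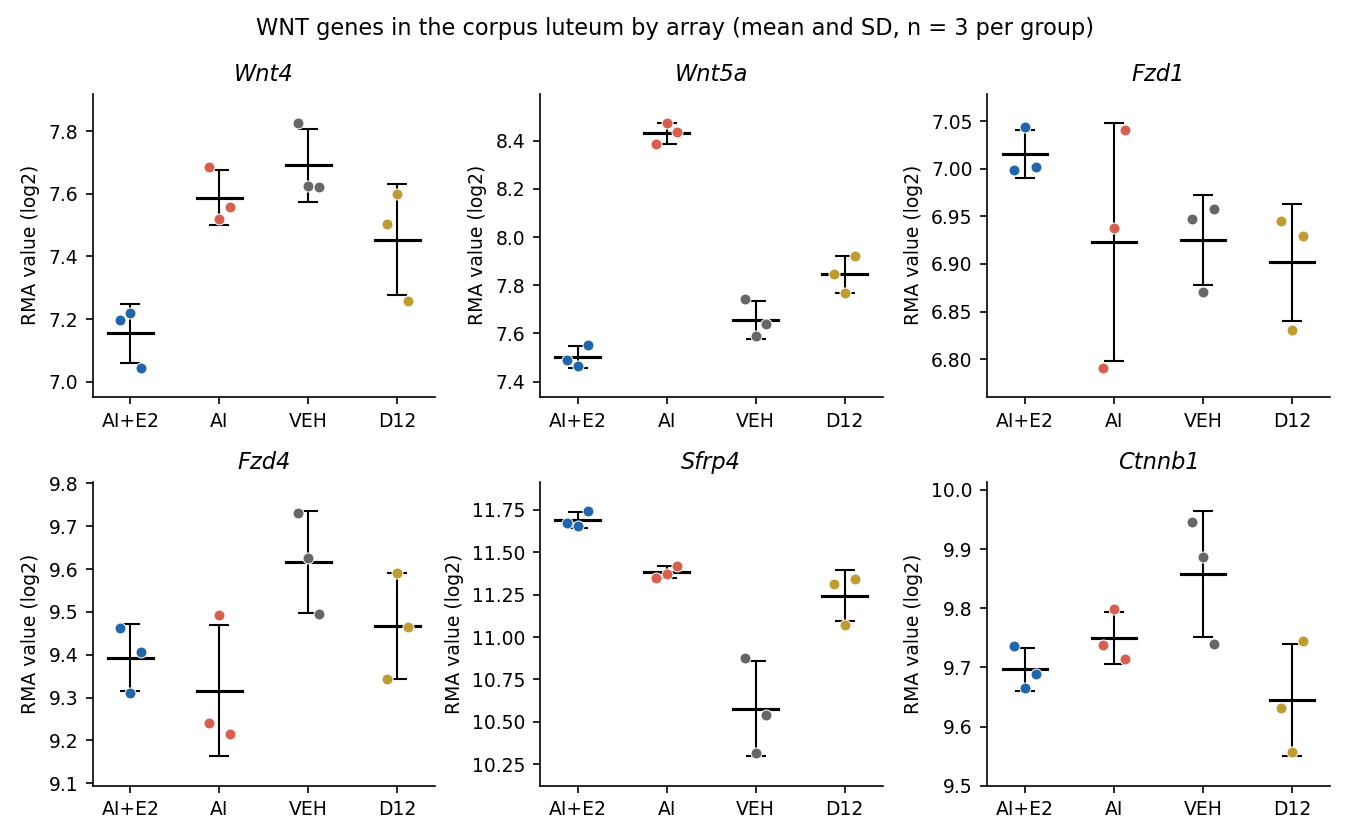
RMA values (log2, y axis, a separate scale per gene) of the 6 WNT genes on each array, with groups AI+E2, AI, VEH and D12 from left to right, n = 3 rats each. Points are single rats, lines are group means and bars are SD. Wnt5a stood between 8.38 and 8.47 in AI, above every other array, and Sfrp4 was lowest in VEH, between 10.32 and 10.88.

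Wnt5a encodes a WNT ligand that mostly signals without β-catenin. Its log2 values in AI+E2 were 7.49, 7.47 and 7.55, in AI 8.38, 8.47 and 8.43, in VEH 7.74, 7.59 and 7.64, and in D12 7.85, 7.77 and 7.92. The 3 AI rats lay above all 9 others, and the AI+E2 rats lay below all VEH rats. Wnt5a rose 1.71-fold in AI against VEH (log2 fold change 0.77, SE 0.061, adjusted p = 3.44e-07, limma), at rank 124 by p among 14506 genes. When E2 was added to AI it fell 1.90-fold (-0.93, SE 0.061, adjusted p = 9.11e-08), at rank 39 by p. These 2 calls were kept in all 15 alternatives tried for each.

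With E2 given back, the level of Wnt5a was not above that of VEH. The log2 fold change of AI+E2 against VEH was -0.15 (95% interval -0.29 to -0.02, adjusted p = 0.130), and the 3 rats of each group did not overlap. Against D12, Wnt5a rose in AI by 0.59 (adjusted p = 2.80e-05) and fell by 0.34 in AI+E2 (adjusted p = 0.00153), calls lost by the methods' t-test (adjusted p = 0.0696 and 0.0700). In VEH it stood 0.19 log2 units below D12 without passing the test (log2 fold change -0.19, adjusted p = 0.0682), and it passed without D12 replicate 2 (adjusted p = 0.0458) or VEH replicate 1 (adjusted p = 0.0475) and after a further quantile normalization (adjusted p = 0.00933). The order of the levels was AI, D12, VEH and AI+E2, and of these neighbours AI and D12 differed.

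The mean level of markers of theca cells, the androgen-making cells around the follicle, was highest in AI, as was Wnt5a. The mean of the 3 measured of 4 listed was 8.89 to 8.91 in AI+E2, 10.14 to 10.37 in AI, 8.45 to 8.48 in VEH and 8.86 to 9.02 in D12. Cyp17a1, the enzyme that makes androgens from progestins and which luteal cells of pregnant rats also express, rose by 4.48 in AI against VEH (adjusted p = 3.21e-13) and fell by 3.41 in AI+E2 against AI (adjusted p = 1.75e-11). Insl3, a peptide hormone gene, rose by 0.75 in AI against VEH (adjusted p = 4.90e-05) and fell by 0.75 in AI+E2 against AI (adjusted p = 6.69e-05). Lhcgr, also a luteal marker, was called in neither comparison. In AI+E2 against VEH, 2 of the 3 markers were called higher (beside 13% of all genes), Cyp17a1 by 1.08 and Lhcgr by 0.25. Insl3 was not called there (log2 fold change -0.003), and neither was Wnt5a (-0.15). The part of theca cells in the Wnt5a result was not tested.

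Wnt4, the other ligand, differed from Wnt5a in that AI without E2 did not set it apart from VEH. On the log2 scale the AI+E2 rats had 7.20, 7.22 and 7.05, the AI rats 7.69, 7.52 and 7.56, the VEH rats 7.83, 7.62 and 7.62, and the D12 rats 7.50, 7.60 and 7.26. The AI+E2 rats were the 3 lowest of the 12, the VEH rats lay above all D12 rats, and the AI rats overlapped both VEH and D12. Wnt4 fell by 0.43 on the log2 scale when E2 was added to AI (SE 0.089, adjusted p = 0.00370), a 1.35-fold lower level. It fell by 0.54 in AI+E2 against VEH (SE 0.089, adjusted p = 7.27e-04), 1.45-fold lower. By the methods' t-test neither fall passed (adjusted p = 0.0641 in AI+E2 against AI and 0.0668 in AI+E2 against VEH). The change in AI against VEH was -0.10, with a 95% interval of -0.29 to 0.09 (adjusted p = 0.506).

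Against day 12, Wnt4 was 0.24 log2 units higher in VEH without passing the test (95% interval 0.05 to 0.43, adjusted p = 0.116), and it passed without D12 replicate 2 (log2 fold change 0.31, adjusted p = 0.0458). In AI+E2 it was lower than in D12 (log2 fold change -0.30, adjusted p = 0.0396). That call was lost in 8 of 15 alternatives. Among these were the fits without D12 replicate 1 (adjusted p = 0.127) or 2 (adjusted p = 0.143) and without AI+E2 replicate 1 (adjusted p = 0.0828), 2 (adjusted p = 0.0563) or 3 (adjusted p = 0.161). From high to low the groups ran VEH, AI, D12 and AI+E2, and the only neighbours that differed were D12 and AI+E2.

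The stretches before the transcription start of both ligands, which fell together in AI+E2 against AI, are shown to compare their base composition and short motifs. They are the 250 bases before a RefSeq transcript start on build GRCr8, plus strand, at chr16:3703415-3703664 for Wnt5a and chr5:154797200-154797449 for Wnt4. In RefSeq, the Wnt5a window and part of the Wnt4 window lie inside the annotated span of the gene, which begins upstream of the start used here. Capitals mark matches to GGGCGG, the GC box bound by Sp1-type factors, on either strand.
Wnt5a: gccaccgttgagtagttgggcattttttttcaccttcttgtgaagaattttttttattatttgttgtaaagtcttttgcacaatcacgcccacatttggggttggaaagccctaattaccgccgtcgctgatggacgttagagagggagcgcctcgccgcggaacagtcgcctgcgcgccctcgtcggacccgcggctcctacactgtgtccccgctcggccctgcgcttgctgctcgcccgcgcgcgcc
Wnt4: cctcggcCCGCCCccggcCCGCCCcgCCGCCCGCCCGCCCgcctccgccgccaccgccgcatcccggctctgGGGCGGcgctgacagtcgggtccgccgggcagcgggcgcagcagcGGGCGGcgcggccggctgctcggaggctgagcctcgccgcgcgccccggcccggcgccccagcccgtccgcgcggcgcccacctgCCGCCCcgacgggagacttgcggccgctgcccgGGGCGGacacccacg

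The Wnt4 window was 86.4% G and C and held 9 GC boxes, some of which overlap, and the Wnt5a window was 57.2% G and C and held 0. Of 33469 RefSeq windows of the same length, 30.5% held at least 1 GC box. Neither CTTTGA, the core of TCF/LEF sites, nor AGGTCA, the half-site of estrogen and other nuclear receptors, was found on either strand in the windows of Wnt5a, Wnt4, Fzd1, Fzd4 or Ctnnb1. These motifs were held by 13.9% and 14.1% of all windows, and the 5 genes are those of the 6 that matched an entry by symbol. The Fzd4 window held 6 GC boxes, and those of Fzd1 and Ctnnb1 held 0. A match or its absence describes these letters and no binding.

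Of the receptors, Fzd4 was lower in AI than in VEH, and Fzd1 did not pass the test in any of the 6 comparisons. Fzd4 is a receptor for WNT ligands and for norrin, and is known for its role in blood vessel growth. Fzd4 read 9.46, 9.31 and 9.41 in AI+E2, and in AI 9.24, 9.49 and 9.21, in VEH 9.73, 9.62 and 9.49, and in D12 9.34, 9.59 and 9.47. AI replicate 2, at 9.49, nearly met VEH replicate 3, also at 9.49, and the AI+E2 rats lay below all VEH rats. Fzd4 fell by 0.30 on the log2 scale in AI against VEH (SE 0.088, adjusted p = 0.0275), 1.23-fold lower.

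This call for Fzd4 was lost in 6 of 15 alternatives. They were the fits without VEH replicate 1 (-0.24, adjusted p = 0.122), VEH replicate 2 (-0.30, adjusted p = 0.0696), AI replicate 1 (-0.26, adjusted p = 0.116) or AI replicate 3 (-0.25, adjusted p = 0.115), the fit over all probe sets (adjusted p = 0.0535) and the methods' t-test (adjusted p = 0.235). Adding E2 to AI moved Fzd4 by 0.08 (95% interval -0.11 to 0.26, adjusted p = 0.643), and AI+E2 differed from VEH by -0.22 (95% interval -0.41 to -0.04, adjusted p = 0.123). In VEH against D12 the log2 fold change was 0.15 (95% interval -0.04 to 0.34, adjusted p = 0.336).

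Markers of endothelial cells moved alongside Fzd4. Their mean log2 level over 10 genes was 8.66 to 8.71 in AI+E2, 8.48 to 8.70 in AI, 9.02 to 9.04 in VEH and 8.57 to 8.75 in D12. Of the 10 markers, 8 fell in AI against VEH (16.9% of all genes were called in either direction), with a median log2 fold change of -0.47 where that of all genes was 0.01, and 6 fell in AI+E2 against VEH (13% of all genes), with a median of -0.36. In VEH against D12, 9 of 10 rose (10.1% of all genes), with a median of 0.38. After adjustment the methods' t-test called 0 of the 10 in AI against VEH and 0 in VEH against D12 (8 unadjusted in each), and 5 in AI+E2 against VEH. Smooth muscle and pericyte markers (10 genes) were also highest in VEH, with means of 8.79 to 8.84 in AI+E2, 8.71 to 8.93 in AI, 8.97 to 9.30 in VEH and 8.63 to 8.67 in D12. Of these, 3 fell in AI against VEH (median -0.32), 3 fell in AI+E2 against VEH (median -0.24) and 7 rose in VEH against D12 (median 0.45). Vwf and Ptprb, the other 2 markers listed, were matched to no probe set in the annotation used. In whole tissue, fewer cells of a type and less RNA per cell cannot be told apart, and the part of either cell type in the Fzd4 result was not tested.

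Tspan12, which encodes a partner of FZD4 in norrin signalling, had the largest fall in AI against VEH among all measured genes of the WNT lists. The 3 AI+E2 rats read 9.45, 9.44 and 9.56, those of AI 9.27, 9.45 and 8.98, those of VEH 10.11, 10.23 and 10.37, and those of D12 9.65, 9.73 and 9.70. Every VEH rat lay above the other 9. Tspan12 fell by 1.003 in AI against VEH (SE 0.097, adjusted p = 2.75e-06, 2.004-fold lower) and by 0.75 in AI+E2 against VEH (adjusted p = 8.07e-05). It rose by 0.54 in VEH against D12 (adjusted p = 0.00188). By the methods' t-test the fall in AI against VEH (adjusted p = 0.0563) and the rise in VEH against D12 (adjusted p = 0.121) did not pass. The difference of 0.25 between AI+E2 and AI did not pass (adjusted p = 0.118), but passed without AI replicate 2 (0.36, adjusted p = 0.0205).

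**Figure D2:**
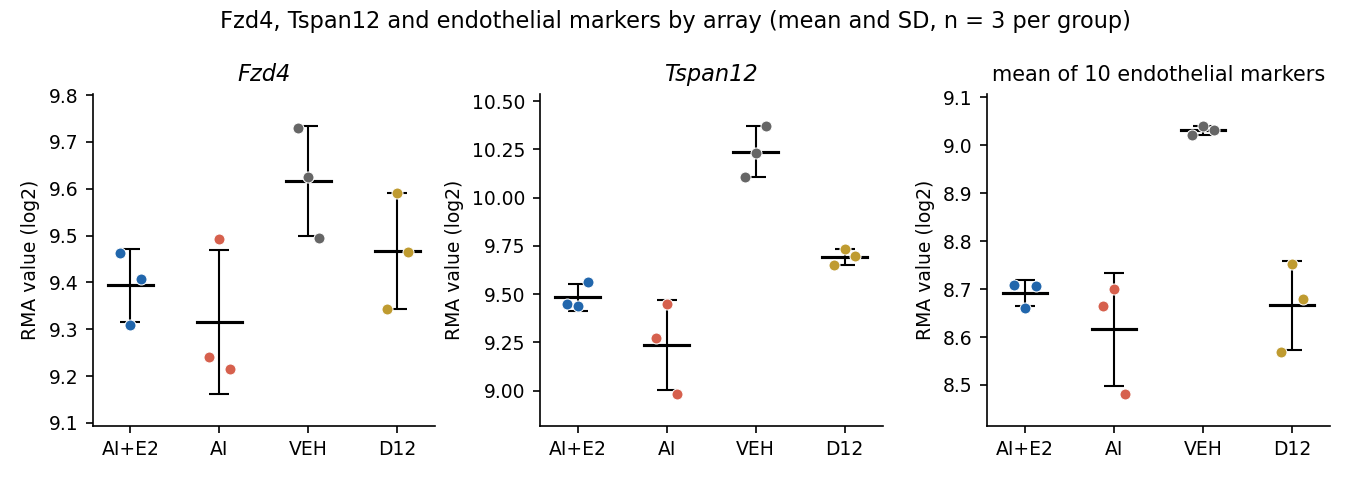
RMA values (log2, y axis, a separate scale per panel) of Fzd4, Tspan12 and the mean of 10 endothelial markers on each array, with groups AI+E2, AI, VEH and D12 from left to right. Points are single rats, lines are means and bars are SD (n = 3). All 3 panels have their highest group mean in VEH, and the endothelial mean was 9.02 to 9.04 there.

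Fzd1, a receptor of the canonical branch, had small differences between groups, none of which passed the test. Its log2 values in AI+E2 were 6.999, 7.04 and 7.002, in AI 6.79, 6.94 and 7.04, in VEH 6.95, 6.87 and 6.96, and in D12 6.95, 6.83 and 6.93. The AI+E2 rats lay above all VEH and D12 rats, and the AI rats, from 6.79 to 7.04, overlapped each other group. The log2 fold change was -0.0025 in AI against VEH (95% interval -0.14 to 0.14, adjusted p = 0.987) and 0.09 in AI+E2 against AI (95% interval -0.05 to 0.23, adjusted p = 0.438). The largest of its 6 log2 fold changes was 0.11, in AI+E2 against D12 (95% interval -0.03 to 0.25, adjusted p = 0.309).

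Sfrp4, the secreted Frizzled-related protein that the ovary makes after ovulation and in the CL of rodents, was lowest in VEH and higher in both groups given AI. Sfrp4 had log2 values in AI+E2 of 11.67, 11.65 and 11.74, in AI of 11.35, 11.38 and 11.42, in VEH of 10.88, 10.32 and 10.54, and in D12 of 11.32, 11.07 and 11.34. The 4 groups did not overlap, with AI+E2 highest, then AI, D12 and VEH, and the VEH rats were spread more widely (SD 0.28) than those of AI+E2 (SD 0.046) or AI (SD 0.036). In AI against VEH, Sfrp4 rose by 0.81 (SE 0.11, adjusted p = 7.50e-05), 1.75-fold. Relative to VEH it rose by 1.11 in AI+E2 (SE 0.11, adjusted p = 5.24e-06), 2.16-fold, the largest change of the 6 genes in any comparison. The methods' t-test, which takes the spread from the compared rats alone, called neither rise (adjusted p = 0.0874 in AI and 0.0559 in AI+E2).

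Sfrp4 was 0.31 log2 units higher in AI+E2 than in AI, a difference that did not pass in the fit over 12 arrays (95% interval 0.08 to 0.54, adjusted p = 0.0822). It passed in the fit on the AI+E2 and AI arrays alone (adjusted p = 0.00325) and by the methods' t-test (adjusted p = 0.0288), which do not use the spread of the VEH rats. Against day 12, Sfrp4 fell by 0.67 in VEH (SE 0.11, adjusted p = 9.06e-04), 1.59-fold lower, a fall that did not pass by the methods' t-test (adjusted p = 0.2502), while the difference of 0.14 between AI and D12 did not pass (95% interval -0.09 to 0.37, adjusted p = 0.584). It rose by 0.45 in AI+E2 against D12 (adjusted p = 0.0131), a call lost without D12 replicate 2 (0.36, adjusted p = 0.0520) or AI+E2 replicate 3 (0.42, adjusted p = 0.0527) and by the methods' t-test (adjusted p = 0.104). Of the neighbours in the order of levels, D12 and VEH differed.

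The mean level of luteal cell markers was lowest in VEH as well. The mean of 9 of them was 11.19 to 11.22 in AI+E2, 10.86 to 10.98 in AI, 10.50 to 10.60 in VEH and 10.98 to 11.03 in D12. Akr1c3, an enzyme that inactivates progesterone, was the member of widest range. Without it, the mean of the other 8 was 11.27 to 11.28 in AI+E2, 11.25 to 11.28 in AI, 11.02 to 11.08 in VEH and 11.17 to 11.23 in D12. Single luteal markers went both ways, with 6 of the 9 higher and 2 lower in AI against VEH (beside 16.9% of all genes called). In AI+E2 against VEH 4 rose and 1 fell (beside 13%), and in VEH against D12 3 fell and 0 rose (beside 10.1%). Macrophage markers (10 genes) averaged 8.10 to 8.15 in AI+E2, 7.99 to 8.13 in AI, 7.79 to 7.91 in VEH and 7.79 to 7.85 in D12. The part of these cells in the Sfrp4 result was not tested.

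Ctnnb1, which encodes β-catenin, the transcriptional partner of TCF/LEF factors and a component of cell junctions, did not pass the test in any of the 6 comparisons. Its log2 values in AI+E2 were 9.74, 9.66 and 9.69, in AI 9.74, 9.80 and 9.71, in VEH 9.95, 9.89 and 9.74, and in D12 9.63, 9.56 and 9.75. VEH replicates 1 and 2 were the highest 2 arrays. The log2 fold change was -0.11 in AI against VEH (95% interval -0.25 to 0.04, adjusted p = 0.331) and -0.05 in AI+E2 against AI (95% interval -0.20 to 0.09, adjusted p = 0.683). The largest was 0.21 in VEH against D12 (95% interval 0.07 to 0.36, adjusted p = 0.0584), which passed without D12 replicate 3 (0.26, adjusted p = 0.0300), without VEH replicate 3 (0.27, adjusted p = 0.0226) and without the 50% of genes of lowest signal (adjusted p = 0.0489).

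**Figure D3:**
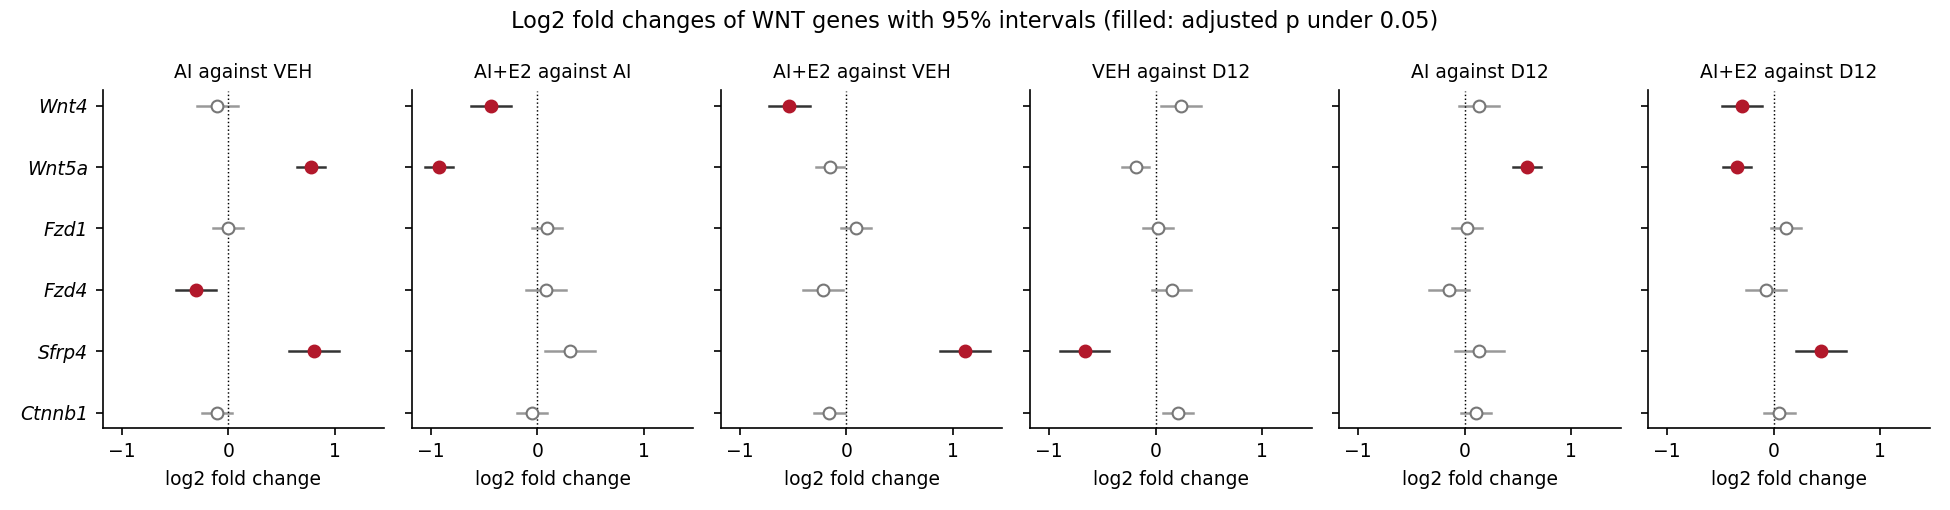
Log2 fold changes (x axis) of the 6 WNT genes in the 6 comparisons, each with its 95% interval from limma over 12 arrays. Filled points had an adjusted p under 0.05. Wnt5a lay at 0.77 in AI against VEH and at -0.93 in AI+E2 against AI, and Fzd1 and Ctnnb1 have no filled point.

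The wider pathway was read from lists of WNT genes, with 94 other genes measured of 111 listed. In AI against VEH, 8 of these rose and 11 fell (20.2%, beside 16.9% of all genes), and 11 or 12 were called without VEH replicate 2, VEH replicate 3, AI replicate 1 or AI replicate 3. AI+E2 against AI gave 6 rises and 3 falls (9.57%, beside 12.8%), and 5 calls without AI replicate 1 or AI+E2 replicate 3. AI+E2 against VEH gave 6 rises and 7 falls (13.8%, beside 13%), and 8 calls without AI+E2 replicate 3. In VEH against D12, 8 rose and 2 fell (10.6%, beside 10.1%), with 4 calls without D12 replicate 1 and 5 without VEH replicate 1. AI against D12 gave 1 rise and 3 falls (4.26%, beside 7.57%), and AI+E2 against D12 gave 5 rises and 3 falls (8.51%, beside 12.1%), with 5 calls without AI+E2 replicate 1 and 4 without AI+E2 replicate 3. As 1 array was left out, the count over all genes also moved, from 2458 to between 1817 and 2303 in AI against VEH. It moved from 1854 to 1245 to 1784 in AI+E2 against AI, and from 1887 to 1252 to 1604 in AI+E2 against VEH. In VEH against D12 it moved from 1471 to 998 to 1436, and in AI+E2 against D12 from 1755 to 1123 to 1771. The median log2 fold change of the 94 genes lay between -0.05 and 0.03 in the 6 comparisons.

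Among 17 WNT ligands measured of 19 listed, 4 rose in AI against VEH, where 16.9% of all genes were called, and the others were not called. Besides Wnt5a these were Wnt10b (0.26, adjusted p = 0.0151), Wnt3 (0.22, adjusted p = 0.0234) and Wnt10a (0.19, adjusted p = 0.0464), which were named after their values were seen. Their mean signals over the 12 arrays were low, at 5.76, 6.46 and 6.56, where the array medians were 6.51 to 6.56. None of these 3 was called when E2 was added to AI, where Wnt5a and Wnt4 were the ligands called. The median log2 fold change of the ligands was 0.09 in AI against VEH and, with E2 added to AI, -0.13, where all genes had 0.01 and -0.02. The mean signals of the ligands ran from 5.66 (Wnt2b) to 7.86 (Wnt5a), and their medians were not compared with those of genes of like signal.

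Fzd8, another Frizzled receptor, showed the widest response to E2 of the 8 receptors measured of 10 listed. Its log2 values in AI+E2 were 8.66, 8.62 and 8.61, in AI 7.31, 7.25 and 7.49, in VEH 7.89, 7.89 and 7.83, and in D12 7.82, 7.61 and 7.94. The AI+E2 rats lay above and the AI rats below all rats of VEH and D12. Fzd8 fell by 0.52 in AI against VEH (SE 0.080, adjusted p = 2.59e-04) and rose by 1.28 in AI+E2 against AI (SE 0.080, adjusted p = 4.90e-08), 2.43-fold. In AI+E2 it was also higher than in VEH, by 0.76 (adjusted p = 1.21e-05, 1.69-fold), and than in D12, by 0.84 (adjusted p = 6.16e-06). Fzd4 and Fzd8 were the 2 of 8 receptors called in AI against VEH, both lower, beside 16.9% of all genes. Fzd8 alone was called in AI+E2 against AI, beside 12.8% of all genes.

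Of 15 secreted and surface inhibitors measured, 2 rose in AI against VEH (beside 16.9% of all genes called), Sfrp4 and Sfrp1, a relative of Sfrp4 named after its values were seen. Sfrp1 rose by 0.28 in AI against VEH (adjusted p = 0.0481) and fell by 0.33 in AI+E2 against AI (adjusted p = 0.0272), whereas Sfrp4 was not lower in AI+E2. The mean signal of Sfrp1 was 5.70, below the array medians of 6.51 to 6.56, and its AI and VEH rats overlapped. Sostdc1, a secreted inhibitor of WNT co-receptors and of BMPs, had log2 values of 7.17, 7.35 and 7.45 in AI+E2, 6.62, 6.45 and 6.91 in AI, 7.23, 6.57 and 6.36 in VEH, and 6.54, 6.69 and 6.61 in D12. VEH replicate 1 stood with the AI+E2 rats. Sostdc1 rose by 0.66 in AI+E2 against AI (SE 0.17, adjusted p = 0.0153), a call lost without AI replicate 1 (adjusted p = 0.0598), AI replicate 2 (adjusted p = 0.0644) or AI+E2 replicate 3 (adjusted p = 0.0734) and by the methods' t-test (adjusted p = 0.115).

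Downstream of the receptors, 1 of 22 measured genes of β-catenin control and transcription rose in AI against VEH and 1 fell (beside 16.9% of all genes called), Tle2 (0.21, adjusted p = 0.0124) and Csnk1e (-0.26, adjusted p = 0.0464), both named after their values were seen. When E2 was added to AI, the log2 fold changes of these 22 genes lay between -0.20 and 0.14. Of 15 textbook β-catenin target genes, 1 rose and 3 fell in AI against VEH, where 16.9% of all genes were called. The falls were those of Ccnd1, Cd44 (-0.19, adjusted p = 0.0320) and Lgr5 (-0.26, adjusted p = 0.0407), the last also a receptor of R-spondins, which strengthen WNT signals. The mean signal of Lgr5 was 5.31, below the array medians, and its AI and VEH rats overlapped. Lgr4, another R-spondin receptor, rose by 0.38 in AI against VEH (adjusted p = 0.0329) and by 0.47 in AI+E2 against VEH (adjusted p = 0.0113). Cd44, Lgr5 and Lgr4 were named after their values were seen. Axin2, the target most often read as a reporter of β-catenin, had mean log2 levels of 6.63 in AI+E2, 6.72 in AI, 6.75 in VEH and 6.71 in D12.

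Ccnd1, the cyclin of early G1 phase, was among the targets that fell. Ccnd1 read 8.13, 8.12 and 8.02 in AI+E2, and in AI 8.26, 8.39 and 8.28, in VEH 8.80, 8.51 and 8.76, and in D12 8.34, 8.37 and 8.32. VEH rats were the highest and AI+E2 rats the lowest, without overlap. Ccnd1 fell by 0.38 in AI against VEH (SE 0.074, adjusted p = 0.00197) and by 0.60 in AI+E2 against VEH (SE 0.074, adjusted p = 4.93e-05), and the difference of -0.22 between AI+E2 and AI did not pass (adjusted p = 0.0601) except in the fit on those arrays alone (adjusted p = 0.0306), after a further quantile normalization (adjusted p = 0.0178) and without the 50% of genes of lowest signal (adjusted p = 0.0459). It rose by 0.34 in VEH against D12 (adjusted p = 0.00745). The methods' t-test called none of these 3 changes (adjusted p = 0.143 in AI against VEH, 0.0667 in AI+E2 against VEH and 0.242 in VEH against D12). Like Wnt4 and Wnt5a, Ccnd1 is among the E2 responsive genes that the study ranked on these arrays, so its calls are no independent evidence that it responds. The values here are of RNA. In the paper's immunoblots, cyclin D1 protein was low on day 16 with or without AI and higher in AI+E2.

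Fst, which encodes follistatin, a β-catenin target and a binder of activin, moved the other way in AI+E2. Fst read 9.01, 8.85 and 8.93 in AI+E2, and in AI 8.13, 8.14 and 8.30, in VEH 7.92, 7.85 and 7.64, and in D12 8.21, 7.90 and 8.50. The AI+E2 rats stood above all others. Fst rose by 0.74 in AI+E2 against AI (SE 0.12, adjusted p = 4.87e-04, 1.67-fold) and by 1.13 in AI+E2 against VEH (adjusted p = 1.02e-05, 2.18-fold). Its rise of 0.39 in AI against VEH (adjusted p = 0.0350) was lost without VEH replicate 2 or 3 or any of the 3 AI rats (adjusted p up to 0.139) and by the methods' t-test (adjusted p = 0.139). Its fall of 0.40 in VEH against D12 (adjusted p = 0.0422) was lost without D12 replicate 1 or 3 or any of the 3 VEH rats (adjusted p up to 0.147) and by the methods' t-test (adjusted p = 0.419). Fst is also among the E2 responsive genes that the study ranked on these arrays, so its calls are no independent evidence that it responds.

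Among 8 genes of cadherins and catenins of cell adhesion, which share β-catenin with the pathway, 4 fell in AI against VEH, where 16.9% of all genes were called, and the other 4 were not called. These were Jup (γ-catenin, -0.56, adjusted p = 2.64e-05), Ctnna1 (α-catenin, -0.45, adjusted p = 4.58e-04), Ctnnd1 (p120-catenin) and Vcl (vinculin, -0.31, adjusted p = 0.0250). Ctnnd1 had log2 values of 9.69, 9.64 and 9.70 in AI+E2, 10.29, 10.27 and 10.17 in AI, 10.64, 10.54 and 10.61 in VEH, and 10.61, 10.74 and 10.73 in D12. It fell by 0.36 in AI against VEH (SE 0.060, adjusted p = 5.40e-04) and by a further 0.57 in AI+E2 against AI (SE 0.060, adjusted p = 9.86e-06). Against VEH, Ctnnd1 fell by 0.92 in AI+E2 (adjusted p = 7.88e-08), 1.89-fold lower. With E2 added to AI, Jup and Ctnna1 rose by 0.23 (adjusted p = 0.0349) and 0.34 (adjusted p = 0.00580), and so did Cdh2, the N-cadherin gene, by 0.47 (adjusted p = 0.00440). Jup, Ctnna1, Vcl and Cdh2 were named after their values were seen.

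**Figure D4:**
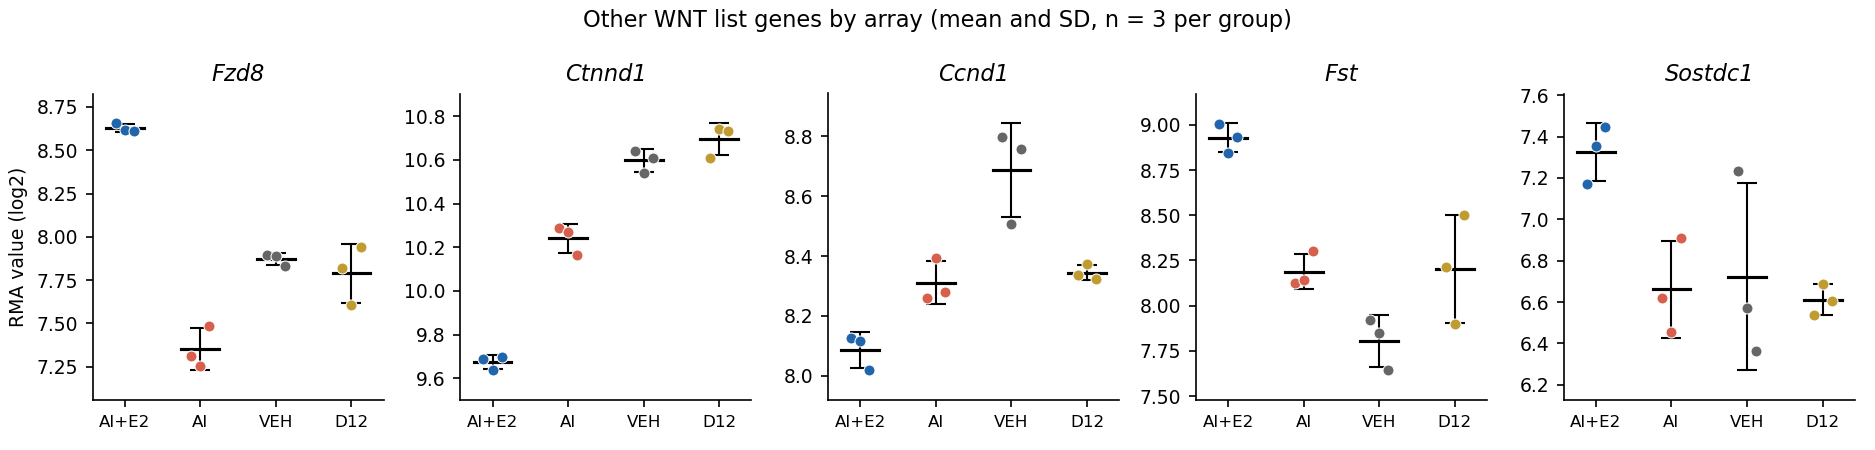
RMA values (log2, y axis, a separate scale per gene) of 5 other WNT list genes on each array, with groups AI+E2, AI, VEH and D12 from left to right. Points are single rats, lines are means and bars are SD (n = 3). The AI+E2 rats were the highest for Fzd8 (8.61 to 8.66) and Fst, and the lowest for Ctnnd1 and Ccnd1, and VEH replicate 1 of Sostdc1 stood apart at 7.23.

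The genes most like each called WNT gene were read from Pearson's r over the 12 arrays, as a description, since the 4 groups share these arrays. For Wnt5a they were Adck1 (r = 0.963), Mmd (0.962) and Nfe2 (0.961), and for Wnt4 they were Arhgap11a (0.931), Nherf2 (0.928) and mrpl24 (0.884). For Sfrp4 they were Cited1 (0.973), a transcriptional co-regulator, Slc15a2 (0.952), a peptide transporter, and Rilp (0.951). Fzd4 was most like Cilk1 (0.936), Papss1 (0.920) and Srgn (0.920), the gene of the proteoglycan serglycin. With the group means taken out, Nfe2 had r = -0.13 with Wnt5a, and the other genes named had 0.49 to 0.92. Between the 6 WNT genes themselves r over the 12 arrays ran from -0.70, for Wnt4 and Sfrp4, to 0.51, for Fzd4 and Ctnnb1. The genes named above were picked as the highest r of all genes, so these values are not set against theirs.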

How the data were processed

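RNA of whole CL had been hybridised to 12 Rat Gene 1.0 ST arrays of Affymetrix. Per the paper's methods and the submitters' processing notes, the authors used RMA in R 2.12.2, and the deposited log2 values cover 29214 probe sets. RMA can compress large differences. Which arrays were normalized together, the genome build and a filter on dim probe sets are not given in the sources used here. Groups were taken from the labels. Probe sets with 1 symbol in the platform annotation (15310) were used, with the probe set of highest mean for each of 527 genes that had several. Dim probe sets were kept. A limma model (version 3.58.1, R 4.3.3; lmFit, then eBayes) was fitted to the 14506 genes with 4 group means (8 residual and 6.66 prior degrees of freedom, two-sided), with 0.05 as the threshold of the adjusted p. The fit was tested on simulated data. Promoter windows and present symbols come from RefSeq (GRCr8). Figures were drawn with matplotlib 3.10.9 in Python 3.11.15.

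The 6 genes, the WNT and marker lists and the tests were chosen with earlier results of these data known. Named besides the 6 were genes of the WNT lists called with a fold change of at least 1.5 in any comparison, and for each called WNT gene the 3 genes of highest r. Alternatives were a further quantile normalization, averaging the probe sets of a gene, filters on the 25% or 50% of genes of lowest signal, all probe sets, the compared groups alone, an intensity trend, the methods' t-test, the replicate number as a block and each array left out. Those on the other list genes and markers were added after seeing the data. Levels of marker lists are means of log2 values.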

Additional observations from a re-analysis of the deposited data

How the results depend on the processing

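Of 540 alternative values of the log2 fold changes of the 6 WNT genes, 500 kept direction and side of the threshold, 24 lost a call, 9 gained one and 7 changed sign, all in Fzd1 or Ctnnb1, which had no call. Fzd1 ran from -0.061 to 0.064 in AI against VEH, from -0.012 to 0.051 in VEH against D12 and from -0.038 to 0.087 in AI against D12 as single arrays were left out, and Ctnnb1 was -0.0013 in AI+E2 against D12 after a further quantile normalization. Among list genes that had no call, the sign also changed for Sostdc1 in AI against VEH (-0.24 to 0.19), VEH against D12 (-0.14 to 0.29) and AI against D12 (-0.076 to 0.15), Fst in AI against D12 (-0.17 to 0.13) and Fzd8 in VEH against D12 (-0.0084 to 0.16).

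The methods' t-test, which estimates the spread from 3 arrays of each group alone, called after Benjamini-Hochberg adjustment 663 genes in AI against VEH, 758 in AI+E2 against AI, 564 in AI+E2 against VEH, 57 in VEH against D12, 45 in AI against D12 and 362 in AI+E2 against D12, and 3203, 3260, 2968, 2247, 1924 and 2996 at its unadjusted threshold. Of the 6 genes it called 1 in AI against VEH and 2, Wnt5a and Sfrp4 but not Wnt4, when E2 was added to AI, while the count was 0 for AI+E2 against VEH, VEH against D12, AI against D12 and AI+E2 against D12 (4, 2, 1 and 3 unadjusted, and 2, 1, 1 and 3 by limma, adjusted). For Wnt5a both the rise with AI and the fall with E2 added to AI kept their calls. Of the other WNT list genes it called 3 in AI against VEH, 5 in AI+E2 against VEH, 2 in AI+E2 against D12, and 0 in VEH against D12 and AI against D12 (17 and 10 unadjusted, and 10 and 4 by limma, adjusted).

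In VEH against D12, 2 of the 6 genes were called after a further quantile normalization and 2 without the 50% of genes of lowest signal, and 1 to 3 as arrays were left out. The fit on these groups alone called 910 genes and 4 other WNT list genes. AI+E2 against D12 called 1 to 3 of the 6 genes as arrays were left out, and 14 other WNT list genes after the quantile normalization. Over all probe sets, 12 other WNT list genes were called in AI against VEH and 6 in VEH against D12. Leaving out arrays called 1252 to 1604 genes in AI+E2 against VEH, 654 to 1050 in AI against D12 and 1123 to 1771 in AI+E2 against D12. For the other WNT list genes the range was 11 to 14 in AI against VEH, 5 to 10 in AI+E2 against AI, 8 to 11 in AI+E2 against VEH, 4 to 11 in VEH against D12 and 4 to 11 in AI+E2 against D12. The cause of these shifts was not tested.

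The replicate numbers did not pair the arrays. Over 18 pairs of arrays with the same number, r of their deviations ran from -0.49 to 0.34, 4 were over 0.1, and 0 of 12 arrays correlated best with its own number. With the replicate block, none of the calls of the 6 genes changed, and of the list genes named, Ccnd1 lost its call in AI+E2 against D12 (-0.26, adjusted p = 0.0573).

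The precision is set by 3 rats per group. An exact permutation test of 3 against 3 arrays, two-sided, cannot give a p under 0.1.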
